A study of Mus musculus with 11 samples.

Results

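A bidirectional promoter is a short stretch of DNA from which a pair of genes on opposite strands is transcribed outward. Such promoters are usually rich in CpG dinucleotides and lack a TATA box, and many of them serve housekeeping genes for DNA repair, mitochondria and basal transcription. Because both genes start from the same nucleosome-poor stretch, the opening of one promoter can serve a pair of genes with unrelated products. Here a pair was taken as bidirectional when a protein-coding gene on the minus strand and a protein-coding gene on the plus strand pointed away from each other and their transcription start sites (TSSs), the outermost 5′ ends of the gene models in the GENCODE annotation of mouse build mm9, lay at most 1000 bp apart. This rule gave 808 pairs, which hold 1599 of the 22367 annotated protein-coding genes, or 7.15%. The median distance between the TSSs of a pair was 141 bp, with quartiles of 73 and 271 bp, and the range ran from 1 to 987 bp. Of the 131942 deposited open chromatin regions, 755 overlapped an interval between paired TSSs, which is 0.572%. A total of 17 genes belonged to more than 1 pair and 3 intervals occurred more than once, because the annotation holds more than 1 gene model there, so the pairs are not all independent stretches of DNA. For comparison, 19653 protein-coding genes with no other protein-coding TSS within 1000 bp were taken as single-TSS promoters, each represented by the 141 bp upstream of its TSS.

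Open chromatin was mapped by ATAC-seq, in which a transposase cuts accessible DNA, in midbrain dopaminergic (DA) neurons and hindbrain serotonergic (5-HT) neurons of mouse embryos at day 14.5. The DA neurons were GFP-positive cells sorted from pooled ventral mesencephalons of TH-GFP embryos, a line kept on a C57BL/6J background in which the promoter of rat tyrosine hydroxylase drives GFP. The 5-HT neurons were YFP-positive cells sorted from pooled anterior rhombomeres of Mash1-CRE x ROSA YFP embryos, so any cell with a history of Mash1 expression in that tissue can carry the label. Males of both lines were crossed to Swiss wild-type females, and 3 DA libraries and 2 5-HT libraries came from separate sorts, which yielded fewer cells for 5-HT neurons. The files list 1 common set of regions with a score in each library, and a score above 0 was read as a peak. The libraries held 52861, 93055 and 94351 peaks in DA 1, DA 2 and DA 3, and 38772 and 22879 peaks in 5-HT 1 and 5-HT 2. Read depth is unknown, so a missing peak cannot be told apart from a peak that was not detectable at the depth of that library. In bulk samples such as these, fewer open cells and a less open promoter in each cell cannot be told apart either.

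Marker genes were looked up at all their annotated starts as a check on the labels. All 9 DA markers had a peak in each DA library, with summed scores of 65.0, 69.9 and 59.5, and Pitx3, a transcription factor of midbrain DA neurons, scored highest in each. In 5-HT 1, 6 of the 9 had a peak (summed score 29.5, Nr4a2 highest), and in 5-HT 2 again 6 of the 9 did too (summed score 19.8, En1 highest). Th, which encodes the rate-limiting enzyme of dopamine synthesis, had scores of 9.91, 10.6 and 8.45 in the DA libraries and 0 in both 5-HT libraries. The 6 5-HT markers separated the libraries less clearly. They had a peak at 3, 4 and 3 genes in the DA libraries (summed scores 22.9, 22.8 and 21.8), with Tph2 highest in DA 1 and DA 3 and Lmx1b highest in DA 2. In 5-HT 1, 5 of the 6 had a peak (summed score 24.3, Tph2 highest), and in 5-HT 2 only Gata3 and Tph2 did (summed score 11.1, Gata3 highest). Tph2, the enzyme of neuronal serotonin synthesis, carried a peak in all 5 libraries, Fev, a defining transcription factor of 5-HT neurons, had a peak only in 5-HT 1 with a score of 3.37, and the serotonin transporter Slc6a4 was at 0 in every library. Markers of endothelium (Cdh5 and Pecam1) and microglia (Csf1r and Cx3cr1) were at 0 in every library, whereas the pericyte markers had peaks in DA 2 (Pdgfrb 4.20 and Rgs5 3.41) and in DA 3 (Pdgfrb 3.12) only. Of the 2 astrocyte markers, Gfap scored above 0 everywhere but in 5-HT 2, and Aldh1l1 was above 0 in DA 2 (3.28) and 5-HT 2 (3.20) only. Slc17a6, the glutamate transporter of many midbrain neurons, scored 9.97, 12.9 and 12.8 in the DA libraries, 3.65 in 5-HT 1 and 0 in 5-HT 2, and of the GABA markers Gad1 and Gad2 had a peak in every library, while Slc32a1 was at 0 in DA 1 and 5-HT 2. The part of other cell types in the results was not tested.

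Bidirectional promoters were open nearly everywhere in both kinds of neuron. A peak overlapped the interval of 761 pairs in DA 1, 768 in DA 2, 763 in DA 3, 750 in 5-HT 1 and 679 in 5-HT 2. As shares of the 808 pairs these were 94.2%, 95.05%, 94.4%, 92.8% and 84.0%, with Wilson 95% intervals of 92.4 to 95.6, 93.3 to 96.3, 92.6 to 95.8, 90.8 to 94.4 and 81.3 to 86.4 that cover counting error only. The interval of 5-HT 2 lay below those of the other 4 libraries. Single-TSS promoters had a peak less often, at 49.9%, 52.9%, 51.5%, 48.6% and 41.0%. Within each library the pairs were ahead by 44.3, 42.1, 42.9, 44.2 and 43.1 percentage points, a mean difference of 43.3 (exact two-sided sign-flip permutation test over 5 libraries, p = 0.063, the smallest value this design can give). The excess of the pairs was thus present in every library and differed little between them, although a test over 5 libraries cannot reach 0.05. The excess was smaller among CpG-rich promoters, which are described separately.

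Where a pair had a peak, that peak also stood high among the peaks of its library. The scale of the deposited score is not named, so each score was turned into a percentile, the percentage of peaks in that library with a score at or below it. The median percentile over the pairs was 88.5 in DA 1, 94.8 in DA 2, 94.0 in DA 3, 84.1 in 5-HT 1 and 79.2 in 5-HT 2. Peaks at single-TSS promoters had medians of 77.4, 87.0, 86.4, 72.2 and 67.5. The pairs were therefore higher by 11.1, 7.77, 7.56, 12.0 and 11.7 points, on average by 10.0 (exact two-sided sign-flip permutation test over 5 libraries, p = 0.063, again the smallest possible value). Among pairs with a peak, 46.9%, 69.3%, 63.6%, 35.7% and 29.7% lay in the top 10% of their library, against 28.4%, 42.7%, 41.8%, 20.8% and 18.6% of single-TSS promoters. The median raw scores of the pairs were 9.39, 12.4, 10.3, 6.66 and 4.90, which serve as a description and are not compared between libraries. The pairs took up a small part of each repertoire, from 0.793% of the peaks in DA 3 to 2.90% in 5-HT 2, the library with the fewest peaks.

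The pairs differed from other promoters in base composition. In 300-bp windows centred on the pairs, mean GC content was 61.8% ± 8.50 (SD over 808 windows), against 55.4% ± 11.7 (SD over 19653 windows) upstream of single TSSs. The median ratio of observed to expected CpG was 0.845 at pairs and 0.493 at single-TSS promoters. With GC above 50% and a CpG ratio above 0.6 as the definition of a CpG-rich promoter, 656 of the 808 pairs (81.2%) and 7902 of the 19653 single-TSS promoters (40.2%) qualified. The pairs were thus about as GC-rich as the single-TSS promoters with a peak in all 5 libraries, whose mean GC content was 63.0%.

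When only CpG-rich promoters were compared, pairs still had a peak more often, but by a much smaller margin. CpG-rich pairs had a peak in 97.9%, 98.6%, 97.9%, 96.8% and 88.6% of cases in DA 1, DA 2, DA 3, 5-HT 1 and 5-HT 2. The corresponding shares of CpG-rich single-TSS promoters were 90.8%, 94.2%, 92.0%, 89.7% and 77.7%. The differences of 7.08, 4.47, 5.86, 7.06 and 10.8 percentage points had a mean of 7.06, compared with 43.3 over all promoters. In the DA libraries and 5-HT 1 the single-TSS shares of 89.7% to 94.2% bound the possible difference closely, and in 5-HT 2 less so. The score percentile changed less, with CpG-rich pairs ahead by 8.92, 5.36, 5.59, 9.78 and 9.38 points (mean 7.81). Pairs outside the CpG-rich class showed the widest gap. The 152 such pairs had a peak in 78.3%, 79.6%, 79.6%, 75.7% and 64.5% of cases, whereas the 11751 single-TSS promoters outside the class had one in 22.4%, 25.2%, 24.3%, 21.0% and 16.2%. Outside the CpG-rich class, a bidirectional promoter was therefore open far more often than a single-TSS promoter in each of the 5 libraries. This split was not tested further.

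The study set DA neurons beside 5-HT neurons, and at the pairs this contrast was small. The mean share of pairs with a peak was 94.6% ± 0.446 (SD, n = 3) in DA neurons and 88.4% ± 6.21 (SD, n = 2) in 5-HT neurons. The difference of 6.13 percentage points had p = 0.1 in an exact two-sided permutation test of 3 libraries against 2, the smallest value that this design allows. It rested largely on 1 library: without 5-HT 2 the difference was 1.73 points, and without 5-HT 1 it was 10.5 points. With only the 22879 top peaks kept in each library, as many as 5-HT 2 holds, the pairs with a peak made up 84.7%, 85.5%, 80.9%, 86.5% and 84.0%, and DA minus 5-HT became −1.57 points (p = 0.6, exact permutation test). With the 10000 top peaks of each library it was 1.34 points (p = 0.7, exact permutation test), and with peaks at or above the median score of each library, which leaves their numbers unequal, it was 15.4 points (p = 0.1). At equal numbers of peaks the contrast was thus small and its sign depended on how many were kept. With libraries of the same replicate number compared as a replicate block, although nothing but the number ties them together, the difference was 6.19 points over the 2 blocks (1.36 in the first and 11.01 in the second, exact sign-flip permutation p = 0.5, the smallest possible). Single-TSS promoters showed a similar contrast, with mean shares of 51.4% in DA and 44.8% in 5-HT neurons, so that the excess of pairs over single-TSS promoters differed between cell types by −0.539 points (exact two-sided permutation test, p = 0.6). This value turned positive at equal numbers of peaks (2.87 points, and 2.77 with 10000 peaks) and with peaks at or above the median score (3.49), so it has no settled direction. The ranking of the pairs by score was much alike between libraries. Spearman's rho over the pairs with a peak in both libraries was 0.916 to 0.932 between DA libraries and 0.858 to 0.886 between a DA library and 5-HT 1. It was 0.780 to 0.797 between a DA library and 5-HT 2, and lowest, at 0.773, between 5-HT 1 and 5-HT 2. The 5-HT libraries were thus less like each other than either was like a DA library. These values describe 676 to 763 pairs that share base composition and the common set of regions between libraries. Single-TSS promoters had similar values, of 0.923 to 0.929, 0.839 to 0.853, 0.748 to 0.763 and 0.740 for the same comparisons.

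With all peaks kept, most pairs were shared by all libraries, and few had peaks in 1 cell type only. A peak in all 5 libraries was found at 675 pairs, or 83.5% (Wilson 95% interval 80.8 to 85.9), whereas the same held for 40.1% of single-TSS promoters and for 12.8% of all deposited regions. Peaks confined to DA neurons, present in each DA library and absent from each 5-HT library, were found at 10 pairs, or 1.24% (0.674 to 2.26). The same DA-only pattern held for 1.66% of single-TSS promoters and 13.4% of all deposited regions. Among CpG-rich promoters it held for 0.762% of pairs and 1.59% of single-TSS promoters. The reverse pattern, a peak in each 5-HT library but no DA library, occurred at 0 pairs, whereas 0.0153% of single-TSS promoters and 0.389% of all regions showed it. No peak in any library was found at 39 pairs, or 4.83% (3.55 to 6.53), against 46.2% of single-TSS promoters. The counts moved with the peaks kept. At equal numbers of peaks 605 pairs were open in all 5 libraries, 5 were DA-only, 10 were 5-HT-only and 65 had no peak. With 10000 peaks a library these counts were 397, 14, 3 and 193. With peaks at or above the median score of each library they were 549, 48, 0 and 54. With all peaks, the few gaps in the pairs lay mainly in 1 library. A total of 71 pairs (8.79%) lacked a peak in 5-HT 2 alone, against 7.06% of single-TSS promoters. Many single-TSS promoters had no peak in any library, so they could show neither this pattern nor the DA-only one. Among CpG-rich promoters a lack in 5-HT 2 alone was found at 8.23% of pairs and 11.1% of single-TSS promoters. The remaining 13 pairs showed other patterns. Leaving out 5-HT 2 therefore raised the number of pairs open in every library to 746, and leaving out 5-HT 1 raised the number of DA-only pairs from 10 to 81.

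The 71 pairs missing in 5-HT 2 alone were among the weaker pairs in the other libraries too. Their median percentile was 57.5 in DA 1, 76.4 in DA 2, 71.1 in DA 3 and 48.8 in 5-HT 1. Pairs open in all 5 libraries had medians of 90.9, 95.6, 94.9 and 85.9 in the same libraries, and 79.4 in 5-HT 2. The 10 DA-only pairs also had modest peaks, with medians of 43.8, 72.5 and 63.9 in the DA libraries. As groups, pairs that lacked a peak in a library therefore had lower medians elsewhere.

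Of the DA-only pairs, the 6 with the highest percentile in their weakest DA library are described first. Acyp1/Fam164c, where Acyp1 encodes an acylphosphatase, had scores of 6.73, 7.48 and 7.16 in DA 1, DA 2 and DA 3. Wdr16/Stx8 (chr11:67779153-67779695), a gene of motile cilia beside an endosomal syntaxin, with the interval between the TSSs given here and elsewhere in mm9 coordinates, scored 9.35, 10.1 and 5.16. Its region was only 261 bp wide, narrower than at most pairs, and the 300-bp window centred on the pair had a GC content of 31.3%. Nisch/Sema3g (chr14:32030132-32031046), which includes a secreted semaphorin of axon guidance, scored 6.41, 5.87 and 5.55 over a region that covers the TSS of Sema3g. Oas1c/Oas1b, a pair of interferon-induced oligoadenylate synthetases, scored 6.29, 7.51 and 4.36. The pair 1700026L06Rik/Ak8 (chr2:28555247-28555684), with an adenylate kinase, scored 5.42, 7.13 and 5.39. Arcn1/Ift46, a coatomer subunit beside a protein of intraflagellar transport, scored 4.31, 6.81 and 5.11. All of these were at 0 in both 5-HT libraries, by the way they were chosen. The other 4 DA-only pairs, named after their values were seen, were Nr2e1/Ostm1, Lrrc46/Mrpl10, Rom1/Eml3 and Nup62cl/E230019M04Rik. Nr2e1 encodes a nuclear receptor of neural stem cells, and its pair scored 3.46, 3.62 and 3.30. At equal numbers of peaks only Acyp1/Fam164c was still among the DA-only pairs, of which there were then 5. The intervals of 3 named pairs are shown because they are short enough to read whole and differ in their content. They are given on the plus strand of mm9 from the TSS of the minus-strand gene to that of the plus-strand gene, with matches to the 8 words searched in capitals (CCAAT, bound by NF-Y, also read as its reverse complement, and GGGCGG, bound by SP factors, are those found here).
Acyp1/Fam164c, chr12:86629388-86629541: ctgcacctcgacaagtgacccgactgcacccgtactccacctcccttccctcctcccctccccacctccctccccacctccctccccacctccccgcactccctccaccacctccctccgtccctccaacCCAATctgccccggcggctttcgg
Oas1c/Oas1b, chr5:121262523-121262644: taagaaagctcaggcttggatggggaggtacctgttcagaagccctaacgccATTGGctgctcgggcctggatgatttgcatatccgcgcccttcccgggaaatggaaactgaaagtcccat
Arcn1/Ift46, chr9:44575928-44575991: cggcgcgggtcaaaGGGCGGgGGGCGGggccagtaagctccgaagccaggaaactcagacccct

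At the other end stood pairs that ranked near the top of every library. Hspa14/Cdnf joins a ribosome-associated chaperone to the gene of a neurotrophic factor that protects DA neurons. Its peak scored 21.8, 24.0 and 26.3 in the DA libraries and 13.8 and 11.8 in the 5-HT libraries, near or above the 99.6th percentile in all 5. It thus ranked among the highest peaks of 5-HT neurons as well. The annotation gives 2 gene models of Hspa14, so the pair entered as 2 members with 1 peak. Mrpl32/Psma2, a mitochondrial ribosomal protein beside a proteasome subunit, scored 20.6, 27.3, 23.5, 14.4 and 11.7. Mcm4/Prkdc (chr16:15637493-15637959), a subunit of the replicative helicase beside the catalytic subunit of a DNA repair kinase, scored 20.0, 22.8, 26.4, 14.0 and 12.2. Both stood near or above the 99.6th percentile in every library. Aasdhppt/Kbtbd3 (chr9:4309494-4309743), whose first gene activates acyl carrier proteins, scored 20.8, 26.9, 29.9, 12.4 and 13.0. Tmtc3/Cep290 (chr10:99949984-99950923), which includes a protein of the ciliary transition zone, scored 17.4, 22.1, 22.8, 13.5 and 11.1 and its TSSs lie 939 bp apart. The region covers the TSS of Tmtc3 and ends before that of Cep290. The intervals of 2 of these pairs are shown because words for several factors are packed into them. Capitals mark matches to CCAAT, to CCGGAAG (bound by ETS factors), to GGGCGG and to GCATGCGC (bound by NRF1) on either strand, and the run of 10 capitals in the interval of Mrpl32/Psma2 holds 2 overlapping matches to GCATGCGC.
Hspa14/Cdnf, chr2:3430031-3430302: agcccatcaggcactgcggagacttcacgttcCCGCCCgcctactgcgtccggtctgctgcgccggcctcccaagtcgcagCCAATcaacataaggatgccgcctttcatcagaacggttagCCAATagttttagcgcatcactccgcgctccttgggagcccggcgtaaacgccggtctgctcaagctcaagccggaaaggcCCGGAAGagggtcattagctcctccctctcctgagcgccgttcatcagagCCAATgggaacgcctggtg
Mrpl32/Psma2, chr13:14705304-14705521: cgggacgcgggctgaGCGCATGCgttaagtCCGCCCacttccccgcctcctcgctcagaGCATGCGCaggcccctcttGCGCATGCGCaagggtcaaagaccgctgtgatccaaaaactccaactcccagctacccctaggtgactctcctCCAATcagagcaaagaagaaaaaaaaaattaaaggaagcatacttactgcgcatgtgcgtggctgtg

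Several pairs are textbook examples of bidirectional promoters, and of 13 looked up 6 met the rule. Atm/Npat (chr9:53344845-53345152), a DNA damage kinase beside a coactivator of histone genes, scored 21.0, 21.4, 21.2, 10.3 and 11.4 in DA 1, DA 2, DA 3, 5-HT 1 and 5-HT 2. Mrps12/Sars2, which joins a protein of the mitochondrial ribosome to the mitochondrial seryl-tRNA synthetase, scored 15.5, 26.1, 15.7, 8.04 and 7.35. Its products both serve mitochondrial translation. Gart/Son (chr16:91647197-91647751), a purine synthesis enzyme beside a splicing protein, scored 10.2, 14.8, 12.8, 8.31 and 4.82. The weakest was Col4a4/Col4a3, a pair of basement membrane collagens, with scores of 3.49, 3.17, 3.77, 3.90 and 0. Its percentile was 5.87 in DA 1, 7.83 in DA 2, 43.7 in DA 3 and 30.8 in 5-HT 1, below the median pair in each. Mcm4/Prkdc met the rule as well. The other 7 textbook pairs fell outside the rule, since the TSSs of Tbp/Psmb1 lie 1612 bp apart and the outermost 5′ ends of the other 6 overlap, by 21 bp in Col4a1/Col4a2 up to 271 bp in Ppat/Paics. The intervals of Mrps12/Sars2 and Col4a4/Col4a3 are shown because they belong to a strong and to a weak pair, with CCAAT and GGGCGG on either strand in capitals. The interval of Col4a4/Col4a3 held no match to the 8 words searched.
Mrps12/Sars2, chr7:29526839-29527010: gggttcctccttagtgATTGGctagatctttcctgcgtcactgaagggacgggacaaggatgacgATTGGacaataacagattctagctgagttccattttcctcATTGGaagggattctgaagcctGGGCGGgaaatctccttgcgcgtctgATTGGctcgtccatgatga
Col4a4/Col4a3, chr1:82583424-82583496: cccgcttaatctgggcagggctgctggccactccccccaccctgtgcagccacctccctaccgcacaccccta

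The 39 pairs without a peak in any library were mostly poor in CpG. Only 9 of the 39 (23.1%) were CpG-rich, with a mean GC content of 53.5% and a median CpG ratio of 0.288. The 6 with the shortest distance between TSSs were Plcd3/Acbd4 (24 bp), Best1/Rab3il1 (36 bp), Dusp3/1700006E09Rik (43 bp), Dgcr2/Tssk1 (58 bp), Rnf151/Rps2 (59 bp) and Plcz1/Capza3 (68 bp). Tssk1 is a testis-specific kinase, Plcz1 the sperm phospholipase that activates the egg and Capza3 an actin-capping protein of spermatids. Best1 encodes a chloride channel of the retinal pigment epithelium. Rps2, a protein of the small ribosomal subunit, is needed in every cell. Rps2 had a peak in all 5 libraries at another of its 8 annotated starts, and so did Best1, Rab3il1 and Dgcr2 at other starts of theirs. Dusp3 had one in 4 libraries, whereas Plcz1 and Capza3 had none at any start. Each start was looked up with the 141 bp upstream of it, which at Plcd3/Acbd4 reaches past the 24-bp interval. There Acbd4 had a peak in 5 libraries and Plcd3 in 1, but these can lie at the outermost starts themselves. Of the 39 pairs, 12 (30.8%), Plcd3/Acbd4 among them, had a peak when all annotated starts of both genes were looked up in this way. For 11 of the 12 it was present in all 5 libraries, and 27 pairs had none at any start. Among single-TSS promoters without a peak, 938 of 9075 (10.3%) had one at another start. A pair offers the starts of both its genes and a single-TSS promoter those of 1 gene, so these shares are not directly comparable. The nearest deposited region lay 3 to 375433 bp from the interval, with a median of 5136 bp, and within 1 kb for 10 pairs. At Plcd3/Acbd4 the nearest region was 3 bp away. Short intervals of 3 such pairs are printed to set beside the open ones, with CCAAT and TGACGTCA (bound by CREB) in capitals. The interval of Dgcr2/Tssk1 held no match to the 8 words and no CpG, whereas that of Plcz1/Capza3 held 2 copies of TGACGTCA and was without a peak all the same.
Dgcr2/Tssk1, chr16:17894238-17894296: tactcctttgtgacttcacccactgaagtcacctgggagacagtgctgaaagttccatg
Rnf151/Rps2, chr17:24855002-24855061: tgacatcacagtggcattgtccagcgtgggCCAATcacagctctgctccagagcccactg
Plcz1/Capza3, chr6:139989978-139990046: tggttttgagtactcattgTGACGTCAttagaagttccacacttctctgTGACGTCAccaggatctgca

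Several lists of housekeeping genes had a higher share of their genes in pairs than the 7.15% of all protein-coding genes, a difference that was not tested. General factors of RNA polymerase and Mediator had 22.5% of their genes in pairs, DNA repair and replication 21.4%, tRNA synthetases 20.6% and chaperones 18.8%. Genes of energy metabolism and mitochondrial translation lay in the same range. Of 92 annotated genes of the respiratory chain and ATP synthase, 23 (25.0%) lay in pairs, and all 22 of these pairs had a peak in all 5 libraries, against 83.5% of all pairs. One of them, Cox4nb/Cox4i1, counts both genes by their symbols, although Cox4nb is a neighbour of Cox4i1 and not a respiratory chain gene. They also include Ndufs1/Eef1b2, Sdhd/Timm8b and Atp5c1/Kin, named after their values were seen. Mitochondrial ribosomal proteins contributed 16 of their 77 genes (20.8%) in 16 pairs, of which 12 were open in all 5 libraries, not more than among all pairs. The exceptions were Eme2/Mrps34, Zfp661/Mrps5 and Mrps21/C920021L13Rik, which lacked a peak in 5-HT 2 only, and Lrrc46/Mrpl10, which was DA-only. All 7 pairs of tRNA synthetases and all 7 pairs of proteasome genes were open in all 5 libraries.

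Genes with symbols of cytosolic ribosomal proteins were paired about as often as protein-coding genes in general. Of 140 annotated genes 9 (6.43%) lay in pairs, close to the 7.15% of all genes, and 5 of the 9 pairs were open in all 5 libraries. Rpl9/Lias (chr5:65782682-65782736), a ribosomal protein beside lipoic acid synthetase, scored 8.62, 9.70, 9.05 and 4.86 and was at 0 in 5-HT 2. Iqcg/Rpl35a and Zwilch/Rpl4 were likewise at 0 in 5-HT 2 only, and Rnf151/Rps2 was without a peak, as described. With 9 pairs the share of open ones is loosely bounded, and it was not tested. The list was set by symbol and not checked for gene copies, so its share may not stand for the ribosomal proteins themselves. Of its 125 single-TSS promoters 58 had no peak in any library, against 2 of 48 for mitochondrial ribosomal proteins.

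Genes that copy, repair and read DNA made up several other groups, and in none of them did the share of pairs open in all 5 libraries lie far from the 83.5% of all pairs. Histones stood out by their arrangement, since 27 of 67 annotated replication-dependent histone genes (40.3%) lay in 14 pairs, most of them an H2A gene beside an H2B gene. Of these pairs 11 were open in all 5 libraries, and Hist1h2bq/Hist1h2ao, Hist1h2ap/Hist1h2br and Hist1h2ba/Hist1h2aa had no peak in any. DNA repair and replication genes contributed 24 pairs, 21 of them open in all 5 libraries. Brca1/Nbr1 (chr11:101413269-101413463), named after its values were seen, is one of these and scored 9.95, 18.1, 11.4, 7.75 and 5.39. Rad51c/Tex14 had no peak at its interval but one at another start of Rad51c, a recombination protein, in all 5 libraries. Rad9b/Vps29 and Tmem111/Fancd2, the latter with a central protein of the Fanconi anaemia pathway, lacked a peak in 5-HT 2 only. General factors of RNA polymerase and Mediator contributed 20 pairs, 16 of them open in all 5 libraries, and the exceptions 1700088E04Rik/Polr2f, Taf11/Anks1, Taf5l/Urb2 and Gtf3c4/Ddx31 again lacked a peak in 5-HT 2 only. Gtf3c4 serves RNA polymerase III rather than II. Zinc finger proteins, many of which silence retroelements, were paired about as often as all protein-coding genes (7.15%), with 27 of 437 genes (6.18%) in 24 pairs, 1 of them, Rbbp4/Zbtb8os, by a symbol that names the opposite strand of a zinc finger gene and not a zinc finger protein. Of these pairs 21 were open in all 5 libraries, Zfp661/Mrps5 and Zfp944/Zfp758 lacked a peak in 5-HT 2 only, and Zfp558/Mbd3l1 had no peak at its interval, although another start of Zfp558 had one in all 5 libraries.

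Stress genes and disease genes gave a mixed picture. Chaperones contributed 15 pairs, 13 of them open in all 5 libraries, again near the share of all pairs. Hspa1a/Hspa1l (chr17:35109069-35109648), which holds the classic heat-inducible chaperone, scored 4.63 in DA 2 and 3.06 in DA 3 and was at 0 elsewhere. Hspb2/Cryab, small heat shock proteins abundant in muscle and lens, had no peak. Parkinson disease genes lay in 3 pairs, all open in all 5 libraries. One was Vps35/Orc6 (chr8:87823412-87823531), where Vps35 is a retromer subunit, with scores of 10.7, 13.7, 12.2, 6.15 and 4.42. Another was Park7/Tnfrsf9 (chr4:150288546-150288671), where Park7 encodes an oxidative stress sensor, with scores of 9.44, 14.4, 7.78, 4.40 and 3.22. Their single-TSS counterparts were open in all 5 libraries at 9 of 10 promoters, where 40.1% of all single-TSS promoters were. Of the 2 pairs found under the type IV collagen symbols, Polk/Col4a3bp holds a ceramide transfer protein rather than a collagen and was open in all 5 libraries. At the opposite pole, none of 1617 genes of olfactory receptors, keratins and other tissue-restricted families and none of 36 protocadherins lay in a pair. As single-TSS promoters the tissue-restricted families had a peak in all 5 libraries at 1 of 1611, and the protocadherins at 9 of 36, against the same 40.1%.

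The distance between the TSSs made little difference to presence but went with the height of the peak. The 298 pairs at most 100 bp apart were open in all 5 libraries in 80.5% of cases, the 339 pairs over 100 and up to 300 bp apart in 86.4%, the 88 pairs over 300 and up to 500 bp apart in 84.1% and the 83 pairs over 500 bp apart in 81.9%. Their Wilson 95% intervals overlapped, from 75.7 to 84.6 in the first class and from 72.3 to 88.7 in the last. The median percentile in DA 1 was 84.0, 92.0, 92.1 and 85.3 from the closest to the widest class, and in 5-HT 2 it was 73.3, 82.9, 89.3 and 79.3. Pairs at intermediate distances therefore carried the strongest peaks in these 2 libraries, and DA 2, DA 3 and 5-HT 1 showed the same order of the closest class below both intermediate classes. Base composition changed along the classes as well, with 92.3%, 85.0%, 72.7% and 34.9% of pairs CpG-rich, and its part was not tested. At the threshold of the rule, the 12 pairs at 901 to 1000 bp had a peak at 12, 12, 12, 11 and 10 intervals, and the 21 pairs at 1001 to 1100 bp, just outside it, at 19, 19, 19, 18 and 18.

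A single region usually spanned the whole bidirectional promoter. Of the 769 pairs with a region, the region covered both TSSs in 735 (95.6%) and 1 TSS in the other 34. Even with TSSs over 500 bp apart it covered both in 52 of 79 pairs (65.8%). The middle of the region fell between the TSSs in 266 pairs (34.6%), and its offset from the midpoint of the pair had a median of 112.5 bp with quartiles of 54 and 230 bp. The share with the middle between the TSSs was 16.0% for TSSs at most 100 bp apart, 36.6% up to 300 bp, 69.9% up to 500 bp and 57.0% beyond. The pooled share thus combines classes that differ widely, and the cause was not tested. Regions at pairs had a median width of 1225 bp (quartiles 933 and 1625.5), similar to the 1173 bp of regions at single-TSS promoters and wider than the 340 bp of all deposited regions. Regions at pairs were open in all 5 libraries in 87.3% of cases, those at single-TSS promoters in 74.3%. The X chromosome held 19 pairs, which is 2.35% of the pairs against 4.35% of single-TSS promoters, and 44 intervals lay in or touched another annotated gene.

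Short sequence words also set the pairs apart from other promoters. The 8 words were searched on both strands of the 300-bp windows, where TGACGTCA and CTCGCGAG read alike on both strands, and no word is contained in another. CCGGAAG occurred in 28.2% of pairs, 9.42% of single-TSS promoters and 10.2% of all 20461 promoter windows. This was the word with the largest ratio between pairs and single-TSS promoters, apart from AAGATGGCG, a word bound by YY1, which occurred in 5.32%, 1.77% and 1.91%. GGGCGG occurred in 67.2%, 41.8% and 42.8%, and CCAAT in 43.1%, 37.2% and 37.4%. Rarer words followed the same direction, with GCATGCGC in 6.56%, 3.03% and 3.17%, TGACGTCA in 4.33%, 2.19% and 2.27%, and CTCGCGAG in 2.85%, 1.04% and 1.11%. TATAAA, the core of the TATA box, was the only one of the 8 that was less frequent at pairs, in 4.70% of them against 13.5% of single-TSS promoters and 13.2% of all windows. Over all promoters, pairs thus held TATAAA less often and the other words more often. Among promoters with a peak in all 5 libraries, pairs still held more CCGGAAG (29.3% against 17.5%), AAGATGGCG (5.93% against 3.44%) and CCAAT (46.7% against 39.1%). The other words differed by fewer points there, such as GGGCGG (69.2% against 69.5%) and TATAAA (4.59% against 5.47%). Within CpG-rich promoters the picture held for CCGGAAG (33.5% of pairs and 17.8% of single-TSS promoters) and TATAAA (1.98% and 4.70%), whereas GGGCGG was slightly less frequent at pairs (74.2% and 77.1%). A match is a description of the letters in a window and does not show that a factor was bound.

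CCAAT went with higher peaks at the pairs, as it did at single-TSS promoters. The 348 pairs with the word had median percentiles of 93.9, 96.8, 96.4, 89.9 and 86.8 in DA 1, DA 2, DA 3, 5-HT 1 and 5-HT 2. The 460 pairs without it had medians of 83.7, 92.6, 90.8, 76.1 and 73.3. At single-TSS promoters the medians were 85.1, 91.8, 91.1, 80.04 and 76.8 with the word and 72.6, 84.2, 83.4, 68.3 and 61.4 without it. In 5-HT 2, 91.1% of pairs with CCAAT and 78.7% of pairs without it had a peak. Likewise, 18.3% of the 71 pairs that lacked a peak in 5-HT 2 alone held CCAAT, against 46.7% of pairs open in all 5 libraries. At the pairs CCGGAAG hardly went with height, whereas at single-TSS promoters it did (87.1 against 75.1 in DA 1). The 228 pairs with it had a peak more often in DA 1 (98.2% against 92.6%), and their median percentiles were close to those of the other pairs, at 90.6 against 87.9 in DA 1 and 83.9 against 84.3 in 5-HT 1. Of the 71 pairs that lacked a peak in 5-HT 2 alone, 33.8% held CCGGAAG, against 29.3% of pairs open in all 5 libraries. CCAAT thus went with higher peaks in every library and with presence mainly in 5-HT 2, as descriptions of these promoters without a test.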

How the data were processed

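ATAC-seq regions of 3 DA and 2 5-HT libraries were analysed, and the RNA-seq libraries of the series were not analysed here. The submitters' processing notes name Trimmomatic, FastQC, Bowtie2, Picard, MACS2 and HOMER and build mm9, with no versions. The authors deposited for each library a score at every region of a common set, on a scale that is not named, with 0 where no peak was called. One misspelled chromosome name was corrected. Pairs, single-TSS promoters and alternative starts came from the GENCODE M1 annotation, and sequences from the mm9 genome. A peak was a region with a score above 0 that overlapped an interval by at least 1 bp, and the highest-scoring one was used. Libraries, not promoters, were the replicates. Presence calls were tested on simulated data. Python 3.11.15, NumPy 2.4.6, pandas 2.3.3, SciPy 1.17.1 and samtools 1.23.1 were used.

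Named pairs were textbook pairs, up to 6 DA-only or 5-HT-only pairs with the highest percentile in their weakest library, the 6 with the highest percentile in their weakest of the 5 libraries, the 6 closest pairs without a peak, members of 14 gene lists that differ from most of their list (up to 6 a list), and any pair in a count of 5 or fewer. The words and lists were set by symbol or letters. Members and lists were chosen with earlier results of these data known. Alternatives covered the number and score of peaks, the distance, the overlap, windows of 300 bp, merging of peaks under 100 bp apart, gene status, base composition and each library left out. Some pairs are not reported here.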

Additional observations from a re-analysis of the deposited data

How the results depend on the processing

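The excess of pairs over single-TSS promoters kept its direction under all alternatives run, with 43.1 to 43.6 points when a library was left out and 7.06 (CpG-rich promoters) to 46.2 points otherwise. The percentile difference ranged from 9.53 to 10.6 and from 7.53 to 11.6. No test here can reach 0.05, so its p says nothing about stability. DA minus 5-HT presence ranged from 1.73 to 10.5 when a library was left out and was −1.57 at equal numbers of peaks, 1.34 with 10000 peaks a library and 15.4 with peaks at or above the median score. The difference between cell types in the excess of pairs ranged from −1.12 to 0.0312 when a library was left out, and became 2.87 at equal numbers, 2.77 with 10000 peaks a library and 3.49 with peaks at or above the median score, and −3.14 among CpG-rich promoters. With the replicate block these values were 6.19 and −0.444 (exact sign-flip permutation p = 0.5 and p = 1). With a library left out, 675 to 746 pairs were open in all libraries, 10 to 81 were DA-only, 0 were 5-HT-only and 39 to 40 had no peak. At equal numbers of peaks 5 pairs were DA-only, 10 were 5-HT-only and 65 had no peak. With 10000 peaks a library 397 were open in all, 14 were DA-only, 3 were 5-HT-only and 193 had no peak. DA-only pairs numbered 48 with peaks at or above the median score, 6 with TSSs at most 300 bp apart, 5 among CpG-rich pairs, where 9 had no peak, and 19 with head-to-head pairs of overlapping 5′ ends added, an alternative chosen after seeing the data. In 200-bp windows the difference between pairs and single-TSS promoters was 14.9 points for CCGGAAG (18.8 in 300-bp windows), 19.4 for GGGCGG (25.4), 1.91 for AAGATGGCG (3.56) and −6.80 for TATAAA (−8.80). The cause of these changes was not tested.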

Other observations

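Head-to-head pairs whose outermost 5′ ends overlap by at most 1000 bp, which the rule leaves out, were looked up as well, a choice made after seeing the data. They numbered 406, and 93.6%, 95.1%, 93.8%, 92.1% and 81.3% of them had a peak in DA 1, DA 2, DA 3, 5-HT 1 and 5-HT 2. A peak in all 5 libraries was found at 329 (81.0%), in the DA libraries only at 9, in the 5-HT libraries only at 0 and in no library at 18. Hspd1/Hspe1, the mitochondrial chaperonin pair, scored 12.5, 17.3, 15.8, 7.77 and 5.39. Col4a1/Col4a2, the main collagens of basement membranes, scored 4.26, 4.76, 4.62, 3.76 and 3.00, so that both collagen pairs looked up had low scores.

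At equal numbers of peaks the DA-only pairs were mostly others than with all peaks. The 5 DA-only pairs were then Spata17/Gpatch2, Rfng/Gps1, Acyp1/Fam164c, Tmem111/Fancd2 and E130303B06Rik/4933405L10Rik, of which Acyp1/Fam164c is DA-only with all peaks too. For the 10 5-HT-only pairs no such comparison is possible, because no pair is 5-HT-only with all peaks. All of them except H2-T22/Gm6034, which is at 0 in DA 1, have a peak in all 5 libraries with all peaks.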
